A study of Arabidopsis thaliana with 6 samples.

Results

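The root epidermis of Arabidopsis is built from files of hair cells and files of non-hair cells. The genes described here are the 10 best known regulators of that choice, WER, MYB23, GL3, EGL3, MYC1, TTG1, GL2, CPC, TRY and ETC1, named by locus, with earlier results of these data known when they were chosen. All 10 were measured, among 32627 loci on the array. They were compared between roots of a pER8::OBP4 line and roots of a pER8::GFP line, which is the control, with 3 arrays per line. pER8 is a vector whose promoter is switched on by estradiol, and OBP4 is a DNA-binding protein of the plant DOF family. Seedlings of both lines were 5 days old when they were put on half-strength MS medium with 10 µM estradiol for 8 h, under a 16 h day. Both lines thus carried the vector and received estradiol, and arrays without estradiol were not analysed here, so a difference between the lines that precedes induction cannot be told apart from one that follows OBP4. The labels give neither the accession of the plants nor the number of transformed lines. Each replicate came from separate plates, per the labels.

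As background, position decides fate in this tissue: a cell lying over the junction between cortical cells becomes a hair cell, and a cell lying over a single cortical cell becomes a non-hair cell. In non-hair cells the MYB proteins WER and MYB23, the bHLH proteins GL3, EGL3 and MYC1 and the WD-repeat protein TTG1 act as a complex. That complex switches on GL2, a homeodomain-leucine zipper protein that holds back the genes of hair growth, and also switches on small MYB proteins without an activation domain, CPC, TRY and ETC1. CPC moves into neighbouring cells, competes with WER for the bHLH partner and so permits the hair fate there. The same toolkit, with GL1 in the place of WER, patterns leaf hairs in the shoot.

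Values are log2 expression as the authors deposited it, so a difference of 1 is a doubling of signal, and differences are OBP4 minus control with the standard error (SE) of the limma fit. A gene was called changed at an adjusted p under 0.05, two-sided, after Benjamini-Hochberg adjustment over all 32627 loci. Array medians over loci were 11.60 to 11.65, correlations across loci were 0.982 to 0.995 within a line and 0.970 to 0.985 between lines, and OBP4 itself was 1.27 ± 0.12 (SE) higher in OBP4 roots (adjusted p = 0.00279, limma). Its mean of 15.81 in OBP4 roots lay close to the highest locus of each array (15.91 to 15.93), so 1.27 may understate its rise. The arrays differed in green tissue. The median of 14 photosynthesis genes, taken as markers of shoot tissue, was 15.41, 12.60 and 13.92 in OBP4 replicates 1 to 3 and 12.77, 12.58 and 13.61 in control replicates 1 to 3, and 0 of the 14 passed the test by limma, also 0 at an unadjusted p under 0.05. All 14 had a positive difference, and the groups overlapped at each of them. OBP4 replicate 1 therefore stood apart in shoot markers, and genes that were high in that array are given below with and without it. Of 7 markers of root tissues, SCR, SHR, PIN2, CASP1 and MYB36 lay above the median of all loci in every array and SMB and WOX5 below it. Their median lay at 14.26 to 14.36 in OBP4 roots and 13.96 to 14.02 in control roots. Gene by gene, though, their median difference was -0.18, with 4 of the 7 below 0. By limma 0 of the 7 passed. At an unadjusted p under 0.05, SCR and PIN2 were lower and MYB36 higher, where 5011 of all 32627 loci were lower and 4299 higher. Per the file headers, the image identifiers of the 6 arrays share 1 leading number and run in order by line, so that order and line cannot be told apart.

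The transcripts of the WER, MYB23 and GL2 genes, which promote the non-hair fate, were lower in OBP4 roots, and that of the bHLH gene MYC1 was higher. The other 6 members did not pass the test. Counted against the whole array, 3 of 10 members fell where 8.48% of all loci fell, and 1 of 10 rose where 5.23% of all loci rose. The count that fell rests on all 6 arrays: it was 0 without OBP4 replicate 1, control replicate 2 or control replicate 3, 1 without OBP4 replicate 2 or 3, and 2 without control replicate 1. It was also 0 with the shoot marker mean as a covariate. The count that rose was 0 without OBP4 replicate 2 or 3 or control replicate 1 or 2. Calls over all loci also dropped without 1 array, from 2767 to between 1571 and 2048 lower and from 1705 to between 892 and 1309 higher. The median difference of the 10 members was -0.28, against 0.02 for all loci. Arrays of OBP4 and control roots did not overlap at 6 of the 10 members, at 5 of them with OBP4 roots lower. Of all loci, 36.9% had groups that did not overlap, and 18.9% had OBP4 roots lower without overlap. In whole roots, fewer cells of a type and less RNA per cell cannot be told apart.

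**Figure D1:**
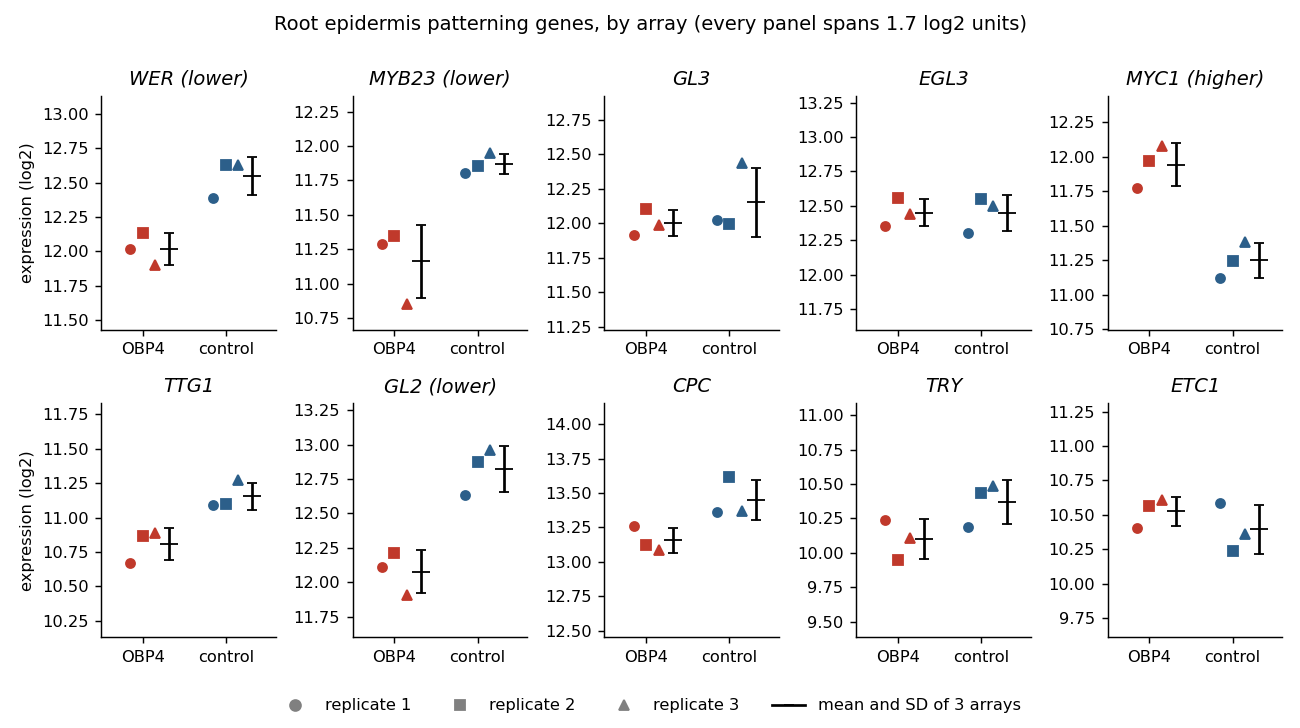
Log2 expression of the 10 patterning genes in each array, with OBP4 roots (red, left) and control roots (blue, right) in each panel, marker shapes for replicates 1 to 3, and black bars for the mean and SD of 3 arrays. GL2, WER and MYB23 lie lower in all 3 OBP4 arrays than in any control array and MYC1 lies higher, while EGL3 arrays of both lines lie between 12.30 and 12.56.

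WER encodes the MYB protein that specifies non-hair cells. Its transcript (AT5G14750; chromosome 5, 4763452 to 4764738, reverse strand; positions are those the array tables list, with no build named) read 12.02, 12.13 and 11.90 in OBP4 roots, against 12.39, 12.63 and 12.63 in control roots. The highest OBP4 array was below the lowest control array. The difference was -0.53 ± 0.10 (SE), which is 30.7% less signal, with limma's adjusted p = 0.0288. MYB23 (AT5G40330; chromosome 5, 16127725 to 16129655, forward strand) is a close relative of WER that WER switches on and that reinforces the non-hair fate. It stood at 11.29, 11.35 and 10.85 in OBP4 roots, against 11.80, 11.86 and 11.95 in control roots. OBP4 replicate 3 was the lowest array, and the groups did not overlap. MYB23 differed by -0.71 ± 0.15 (SE), with limma's adjusted p = 0.0341. Its SD was 0.27 in OBP4 roots and 0.07 in control roots (n = 3 each), and without OBP4 replicate 3 its difference was -0.56.

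The 3 bHLH partners did not move alike. GL3 (AT5G41315; chromosome 5, 16529455 to 16532879, forward strand) and EGL3 (AT1G63650; chromosome 1, 23599653 to 23602902, forward strand) are largely interchangeable partners of WER. GL3 read 11.92, 12.11 and 11.99 in OBP4 roots, against 12.02, 11.99 and 12.44 in control roots, and control replicate 3 was the one high array. EGL3 read 12.35, 12.56 and 12.44 in OBP4 roots, against 12.30, 12.55 and 12.50 in control roots, and the arrays of both lines were intermixed. Neither passed the test, with a difference of -0.15 (95% interval -0.50 to 0.21) for GL3 and 0.00 (-0.24 to 0.25) for EGL3.

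MYC1 (AT4G00480; chromosome 4, 216812 to 219743, reverse strand) encodes a bHLH protein related to GL3 and EGL3 that binds the same kind of MYB partners. It stood at 11.78, 11.97 and 12.08 in OBP4 roots, against 11.12, 11.25 and 11.38 in control roots, and every OBP4 array was above every control array. The difference was 0.70 ± 0.11 (SE), or 1.62-fold, with limma's adjusted p = 0.0160. The array carries 2 gene models of MYC1, each read by 4 probes, and these values are their mean. The first model read 13.54, 13.76 and 13.68 in OBP4 roots, against 12.91, 13.06 and 13.24 in control roots. The second, whose annotated 3′ end reaches further, read 10.01, 10.18 and 10.49 in OBP4 roots, against 9.32, 9.43 and 9.52 in control roots. Both models were higher, by 0.59 ± 0.11 (adjusted p = 0.0262) and 0.80 ± 0.14 (adjusted p = 0.0194), in limma over 37118 gene models, of which 5.2% rose.

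The level of MYC1 was also set against its relatives within each array, in comparisons chosen after the values were seen, which restate its rise and are given as a description. As mean ± SD of 3 arrays, MYC1 minus GL3 was -0.06 ± 0.13 in OBP4 roots, against -0.90 ± 0.16 in control roots. MYC1 minus EGL3 was -0.51 ± 0.13 in OBP4 roots, against -1.20 ± 0.09 in control roots. The arrays of the lines overlapped in neither difference, and the exact permutation test gave p = 0.1, the smallest that 3 against 3 arrays allow, for each of the 3 such pairs examined, GL2 minus CPC being the third. They do not say which transcript is the more abundant, since signals of different probes are not on a common scale.

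TTG1 (AT5G24520; chromosome 5, 8370587 to 8372847, reverse strand), the WD-repeat protein that holds MYB and bHLH partners together, did not pass, although its arrays separated by line. It read 10.67, 10.86 and 10.89 in OBP4 roots, against 11.09, 11.10 and 11.27 in control roots. The difference was -0.35 ± 0.09 (SE), with limma's adjusted p = 0.0736. These values average 3 gene models of 3 probes each, which differed by -0.31, -0.32 and -0.40 and did not pass singly. The dimmest of the 3, with means of 8.46 in OBP4 roots and 8.77 in control roots, overlapped between the lines.

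GL2 (AT1G79840; chromosome 1, 30037415 to 30041091, forward strand) is the output of the complex in non-hair cells. It stood at 12.11, 12.22 and 11.91 in OBP4 roots, against 12.63, 12.87 and 12.96 in control roots. The highest OBP4 array lay below the lowest control array. GL2 differed by -0.74 ± 0.13 (SE), or 40.3% less signal, with limma's adjusted p = 0.0181. In OBP4 replicate 3, WER, MYB23 and GL2 were all at the lowest of their OBP4 values and MYC1 was at its highest.

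The small MYB genes CPC, TRY and ETC1, which the same complex switches on and whose proteins favour the hair fate, showed no change past the test. CPC (AT2G46410; chromosome 2, 19049172 to 19050341, reverse strand), the mobile inhibitor, read 13.26, 13.13 and 13.09 in OBP4 roots, against 13.36, 13.62 and 13.37 in control roots. Its arrays did not overlap, but OBP4 replicate 1 lay close to the lowest control array, and the difference of -0.29 ± 0.10 (SE) had an adjusted p of 0.132 by limma. TRY (AT5G53200; chromosome 5, 21582774 to 21584145, forward strand), best known from the spacing of leaf hairs, read 10.24, 9.95 and 10.11 in OBP4 roots, against 10.19, 10.44 and 10.49 in control roots. OBP4 replicate 1 was above control replicate 1, and the difference was -0.27 (95% interval -0.57 to 0.03). ETC1 (AT1G01380; chromosome 1, 147153 to 147942, forward strand), which acts redundantly with both, read 10.41, 10.56 and 10.61 in OBP4 roots, against 10.59, 10.24 and 10.36 in control roots. The lines overlapped, and the difference was 0.13 (95% interval -0.16 to 0.42). Within arrays, GL2 minus CPC was -1.08 ± 0.15 in OBP4 roots, against -0.62 ± 0.19 in control roots (mean ± SD of 3 arrays). In a second deposited table under the same sample names, whose scaling is not stated, CPC was 1 of 10 members higher and 0 of 10 were lower, where 3.17% of loci were higher and 2.38% lower by limma. At an unadjusted p under 0.05 by limma, GL2 and MYB23 were lower there and CPC higher. The share of all loci at that p was not computed for the second table, so these calls are not read as a result. OBP4 itself did not differ in that table (0.01, adjusted p = 0.98 by limma), so the induced gene did not bear out its labels.

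Other genes known to act in epidermal patterning were called about as often as genes at large. Of 18 such genes, all measured, 2 fell, 0 rose and 16 did not pass by limma, with a median difference of -0.14. That is 11.1% called, against 13.7% of all loci. At an unadjusted p under 0.05 by limma, 6 were lower and 0 higher, where 5011 of all 32627 loci were lower and 4299 higher. The 2 that fell have no symbol in the array annotation or the reference table. AT5G06270 read 9.05, 9.02 and 9.47 in OBP4 roots, against 9.87, 10.09 and 10.33 in control roots, which is -0.92 ± 0.18 (SE), adjusted p = 0.0267 by limma. AT3G11600 read 10.77, 10.51 and 10.83 in OBP4 roots, against 11.23, 11.28 and 11.36 in control roots, which is -0.58 ± 0.11 (SE), adjusted p = 0.0224 by limma. The lines did not overlap at either locus. Without single arrays AT5G06270 passed only when OBP4 replicate 3 (0.0273) or control replicate 1 (0.0469) was left out, with adjusted p of 0.0786 to 0.0894 otherwise. AT3G11600 passed only without OBP4 replicate 2 (0.0364) or OBP4 replicate 3 (0.0420), with 0.0519 to 0.0845 otherwise.

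Several genes that did not pass are given for their roles or their spread, and were picked with their values known. The receptor-like kinase SCM, which passes positional information to the epidermis, differed by -0.10 (95% interval -0.32 to 0.11) and QKY, a membrane protein that acts with it, by 0.10 (-0.04 to 0.25). The zinc finger gene JKD, which acts from the cortex, differed by -0.26 and the WRKY gene TTG2, a target of the complex, by -0.35, with adjusted p of 0.149 and 0.0905 by limma. The remaining inhibitor genes related to CPC include ETC3, which read 9.10, 9.22 and 9.51 in OBP4 roots, against 9.71, 9.82 and 9.71 in control roots. Its arrays did not overlap, and its adjusted p was 0.0616 by limma. It was 0.0269 without OBP4 replicate 3 and 0.123 to 0.168 without any other single array. ETC2 was dim, at 6.67 to 6.96 in OBP4 roots and 6.65 to 7.53 in control roots, and did not pass. TCL2, another inhibitor gene, read 10.19, 6.46 and 7.64 in OBP4 roots and 7.35, 6.32 and 7.24 in control roots, so that its one high value is in OBP4 replicate 1, the array highest in shoot markers. The difference of TCL2 was 1.12 with that array and 0.08 without it. GL1, the leaf-hair counterpart of WER, was at 8.94, 8.11 and 7.67 in OBP4 roots and 7.95, 7.71 and 8.50 in control roots, with overlapping arrays. It belongs to 8 genes that work with the same bHLH and WD-repeat partners elsewhere in the plant, of which 0 passed by limma and 2, MYB5 and MYB114, were higher at an unadjusted p under 0.05. Of all 32627 loci, 4299 were higher at that p. The median difference of the 8 genes was 0.09, and it was -0.09 without OBP4 replicate 1 and -0.01 without control replicate 1.

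**Figure D2:**
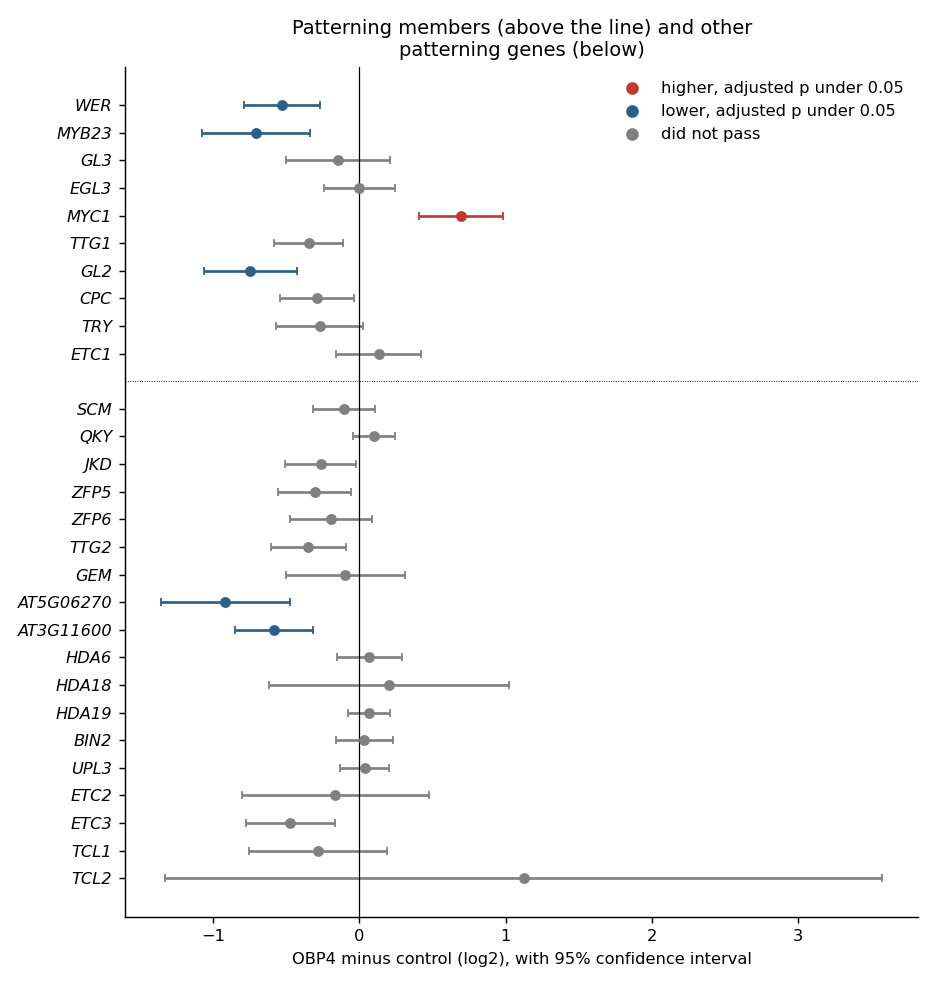
Difference between OBP4 and control roots (log2) with its 95% confidence interval from limma, for the 10 members above the dotted line and the 18 other patterning genes below it. MYC1 is the one gene of the 28 past the test with OBP4 higher, and WER, MYB23, GL2, AT5G06270 and AT3G11600 are those past it with OBP4 lower.

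GL2 is 1 of a family of homeodomain-leucine zipper proteins (class IV), many but not all of which act in the outermost cell layer. Of 15 relatives on the array, 3 rose and 0 fell by limma, where 5.23% of all loci rose and 8.48% fell. A count of 0 lower is near that share. At an unadjusted p under 0.05, 3 were higher and 1 lower, where 4299 of all 32627 loci were higher and 5011 lower. The median difference of the 15 relatives, 0.41, moved with single arrays. It was 0.15 without OBP4 replicate 1, 0.26 without control replicate 1, 0.27 without control replicate 2 and 0.61 without OBP4 replicate 3. HDG1 read 13.80, 13.76 and 13.73 in OBP4 roots, against 11.94, 12.06 and 12.21 in control roots. It was higher by 1.69 ± 0.09 (SE), or 3.23-fold, with limma's adjusted p = 5.47e-04. HDG3 read 8.63, 8.66 and 8.29 in OBP4 roots, against 6.57, 6.36 and 6.87 in control roots, where it was dim. The difference was 1.92 ± 0.17 (SE), with limma's adjusted p = 0.00226, and its size is less exact for that reason. Both genes passed in all 6 fits that left out 1 array. ANL2, which affects cell organisation in the Arabidopsis root, read 10.41, 10.19 and 10.63 in OBP4 roots, against 9.19, 9.61 and 9.78 in control roots. It rose by 0.88 ± 0.19 (SE) with limma's adjusted p = 0.0383, and passed in 0 of those 6 fits (0.0583 to 0.106).

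Other relatives of GL2 varied with the array highest in shoot markers. ATML1, PDF2 and HDG5 read 12.18, 13.65 and 9.06 in OBP4 replicate 1, and at most 8.68, 11.13 and 6.76 in the other OBP4 arrays and 9.18, 11.06 and 6.998 in control arrays. Their differences were 1.22, 1.23 and 1.002 with OBP4 replicate 1, and -0.12, 0.31 and 0.15 without it, and they did not pass in either fit. These genes and HDG2 were picked for their spread after the values were seen. HDG2 read 11.34, 9.60 and 9.72 in OBP4 roots, against 10.88, 10.94 and 11.08 in control roots, so that OBP4 replicate 1 was the highest array and the other OBP4 arrays the lowest. With all arrays HDG2 did not pass (-0.74, adjusted p = 0.380), and without OBP4 replicate 1 its difference was -1.30 with limma's adjusted p = 0.0060. Without that array 2 relatives, HDG1 and HDG3, rose and HDG2 fell, where 1309 of all 32627 loci rose and 2048 fell. A count of 1 lower among the 15 relatives is near that share. The part of shoot tissue in these values was not tested.

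**Figure D3:**
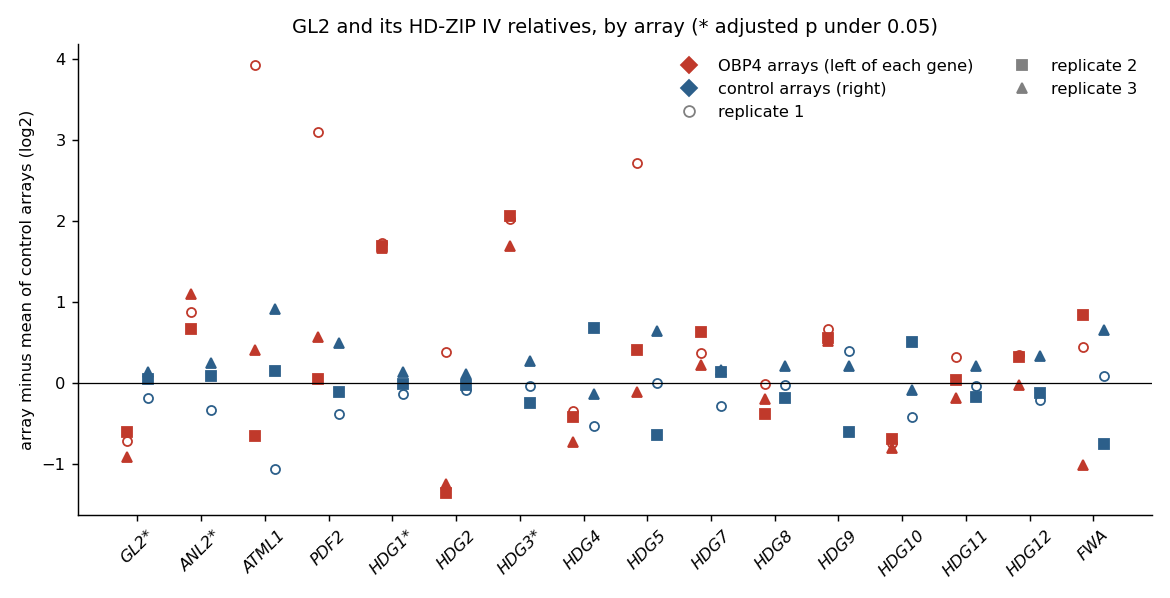
Each array's log2 value minus the mean of the 3 control arrays, for GL2 and 15 relatives, with OBP4 arrays in red to the left, control arrays in blue to the right and open circles for replicate 1. HDG1 (mean difference 1.69) and HDG3 (1.92) lie above the control mean in every OBP4 array and GL2 (-0.74) lies below it, while ATML1, PDF2 and HDG5 have 1 high OBP4 array each, replicate 1.

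Several genes on the hair side of the choice fell. Of the 9 bHLH genes that direct root hair formation, several of which GL2 represses in non-hair cells, 5 fell and 1 rose. Of all loci, 8.48% fell and 5.23% rose. RSL1, LRL2 and AT5G43175 did not pass, and the median difference of the 9 genes was -0.71. RHD6, which acts early among them, stood at 12.17, 12.15 and 12.01 in OBP4 roots, against 12.80, 12.85 and 12.95 in control roots. RHD6 differed by -0.76 ± 0.08 (SE) with limma's adjusted p = 0.00363. RSL2, which acts after RHD6 in hair growth, differed by -1.89, AT2G14760 by -1.35, LRL3 by -0.87 and RSL4, which sets hair length, by -0.71 (limma's adjusted p = 7.10e-04, 6.09e-04, 0.00623 and 0.0285). LRL1 was the one that rose, by 0.42 (adjusted p = 0.0169, limma). LRL1 passed only without control replicate 3 (0.0386) and RSL4 only without OBP4 replicate 1 (0.0468) among fits lacking 1 array, while the others passed in all 6. Of 9 markers of hair cells, such as COBL9 and RHD2, 7 fell and 0 rose, against the same shares of all loci, with a median difference of -0.66. All 9 had OBP4 arrays below control arrays without overlap, as had 18.9% of all loci. The number that fell was 3 without control replicate 1 and 4 without control replicate 3.

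The 4 changes kept their direction whichever array was left out, but their calls depended on it. Without 1 array, differences were -0.84 to -0.66 for GL2, -0.61 to -0.47 for WER, -0.80 to -0.56 for MYB23 and 0.63 to 0.78 for MYC1. By limma, GL2 no longer passed without OBP4 replicate 1 (adjusted p = 0.0535), OBP4 replicate 3 (0.0536), control replicate 2 (0.0622) or control replicate 3 (0.0650). WER passed without control replicate 1 (0.0353), and not without OBP4 replicates 1 (0.0780), 2 (0.0545) or 3 (0.0860) or control replicates 2 (0.0900) or 3 (0.101). MYB23 passed without OBP4 replicate 3 (0.0289), and not without OBP4 replicates 1 (0.0644) or 2 (0.0537) or control replicates 1 (0.0911), 2 (0.0932) or 3 (0.112). MYC1 passed without OBP4 replicate 1 (0.0222) or control replicate 3 (0.0385), and not without OBP4 replicates 2 (0.0620) or 3 (0.0517) or control replicates 1 (0.0569) or 2 (0.0545). With the shoot marker mean of each array as a covariate, the differences of GL2, WER, MYB23 and MYC1 were -0.74, -0.51, -0.71 and 0.73. MYC1 still passed in that fit (0.0407), and GL2 (0.0539), WER (0.0774) and MYB23 (0.0820) did not.

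**Figure D4:**
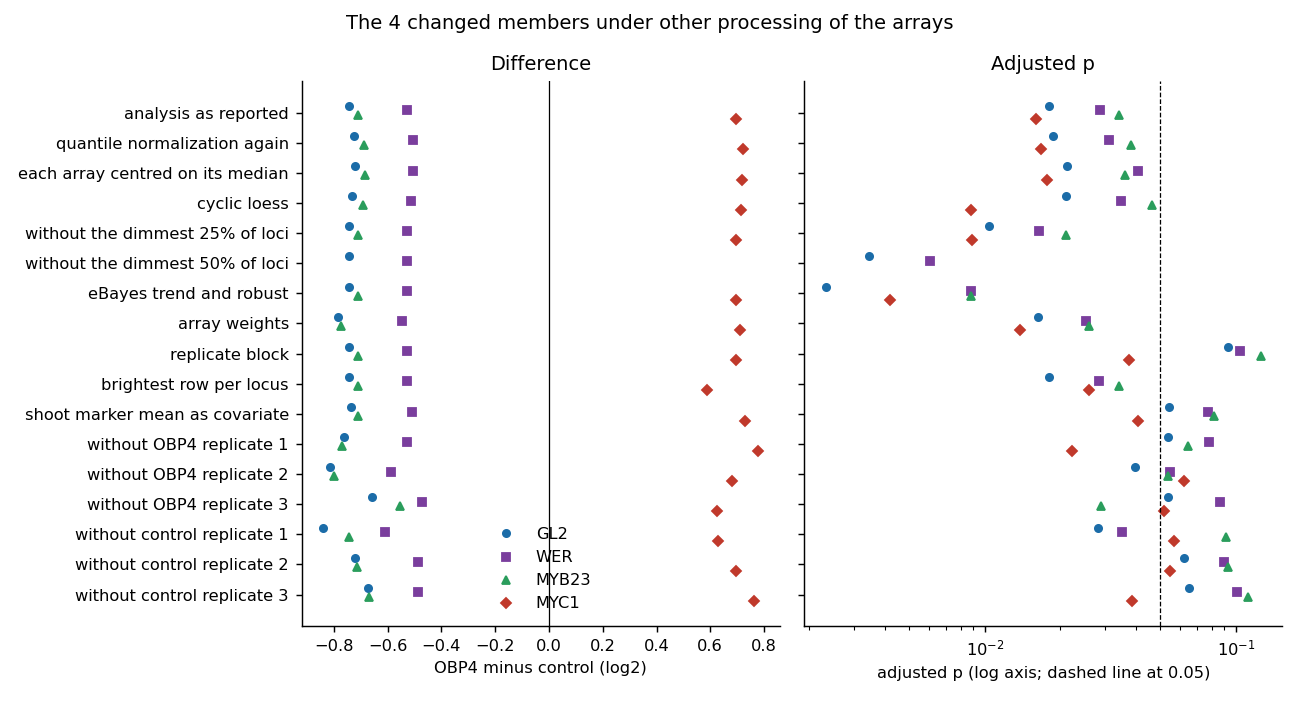
Differences (left, log2) and adjusted p (right, log axis, dashed line at 0.05) of GL2, WER, MYB23 and MYC1 in limma fits of the arrays under each alternative, where MYB23 and MYC1 are absent from the fit without the dimmest 50% of loci. GL2 stays between -0.84 and -0.66 and MYC1 between 0.59 and 0.78, while adjusted p crosses 0.05 in several fits.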

How the data were processed

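Total RNA of roots was labelled with Cy3 from 10 µg per sample and hybridised to 6 one-colour NimbleGen arrays, per the labels' protocols. The authors deposited log2 values for 37118 gene models per array; RMA is named by the deposited tables themselves, and no source used here gives its software or settings. Members were read from 13 gene models of 3 or 4 probes each, and models of a locus were averaged, which gave 32627 loci. No further scaling or filter was applied. Depth does not apply to arrays, and 3 arrays per line limit the precision.

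The limma package (version 3.58.1, R 4.3.3; functions lmFit and eBayes) compared the lines, and the script was tested on simulated data with known shifts. The labels state no test. The exact permutation test used scipy 1.17.1. No array was dropped, no 2 arrays were identical, and no per-sample column was left unused. Symbols are those of the array annotation and the TAIR10.1 reference table.

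All 10 members were named whatever their p, with up to 6 genes past the threshold per other list and RHD6, GL1, ETC2 and ETC3 regardless. Genes named outside that rule are said to be so where they appear, except the root tissue markers, RSL1, LRL2, AT5G43175, MYB5 and MYB114. Members and lists were chosen with earlier results of these data known. Same-numbered replicates did not deviate together (correlations of -0.20, 0.09 and -0.17), and numbers were not taken as pairs. Correlations between arrays of unlike number were -0.27 to 0.36. With 3 arrays per line this check cannot exclude a shared batch. Alternatives were other scalings, filters, variance models and thresholds, the brightest model, a block, a shoot covariate, a second deposited table of log2 values and leaving out each array. Counts of the HD-ZIP and hair lists under them, and medians of the lists without single arrays, were added after the data were seen. Sequences were not used here.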

Additional observations from a re-analysis of the deposited data

Results flagged for a closer look

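The second deposited table, outside the comparison of the arrays, held a difference at CPC. Its values appear to be log2, its normalization and centring are not stated, and deviations of loci from their mean correlated with those of the own array at -0.08 to 0.21. In that table CPC was 13.78, 13.62 and 13.86 under the OBP4 labels, against 12.86, 13.06 and 13.19 under the control labels, which is 0.72 ± 0.12 (SE), adjusted p = 0.0285 by limma, where 3.17% of loci were higher. In the arrays CPC differed by -0.29. OBP4 itself differed by 0.01 in the second table, with limma's adjusted p = 0.98, against 1.27 in the arrays. The induced gene thus did not bear out the labels of the second table, and differences in it cannot be read as OBP4 against control roots. GL2 differed there by -0.52 (adjusted p = 0.0758), MYB23 by -0.38 (0.159), WER by -0.03 (0.940) and MYC1 by -0.26 (0.321). Why the table departs from the arrays was not tested.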

How the results depend on the processing

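GL2, WER, MYB23 and MYC1 kept direction and call under quantile normalization, median centring, cyclic loess, trend and robust settings, array weights, the brightest model and without the dimmest 25% of loci. MYC1 and MYB23 are not among the loci left without the dimmest 50%, so no member was higher there (0). Of the members, 3 were lower in the reported fit and 1 higher. The number lower was 0 with the replicate block, 0 with the shoot covariate, 0 in the second table, 0 at adjusted p under 0.01, 0 with a change of at least 1, and 0 to 2 without single arrays; the number higher was 0 at either stricter threshold and 0 to 1 without single arrays. The labels do not say whether replicate numbers mark pairs of arrays. With the replicate block the differences were the same and adjusted p was 0.0930 for GL2, 0.104 for WER, 0.125 for MYB23 and 0.0374 for MYC1. TTG1 passed under cyclic loess (0.0474) and without the dimmest 25% (0.0444), and CPC without the dimmest 50% (0.0496). Signs turned in the second table for CPC (0.72), MYC1 (-0.26), GL3 (0.0033) and EGL3 (-0.28), and for EGL3 without OBP4 replicate 2 (-0.05) or control replicate 1 (-0.073), within a range of -0.073 to 0.0497 over single arrays left out. Of other patterning genes 2 were lower, against 1 in the second table, 1 with the replicate block, 1 with the shoot covariate, 0 at either stricter threshold and 0 to 3 without single arrays. Over all loci 2767 were lower and 1705 higher, against 778 and 1034 in the second table, 1114 and 588 with the replicate block, 1295 and 669 at adjusted p under 0.01, 999 and 560 with a change of at least 1, and 1571 to 2048 and 892 to 1309 without single arrays; trend and robust settings gave 2561 higher. Hair cell markers lower were 7, against 2 with the replicate block and 0 in the second table, root hair bHLH genes lower were 5, against 0 in the second table and 3 without the dimmest 50%, where 5 of 9 were in the fit, and HD-ZIP relatives higher were 3, against 0 in the second table and 1 without the dimmest 50%, where 2 of 15 were in the fit. The causes were not tested.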
